A study of Homo sapiens with 36 samples.

Results

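The genes described here are the CD28 family of T cell costimulatory and inhibitory receptors and the immune checkpoint receptors that work beside them. They are CD28, CTLA4, ICOS, PDCD1, BTLA, LAG3, HAVCR2, TIGIT, CD226 and CD96, chosen by gene name in the authors' table of expected counts, which makes 10 of 60623 genes. Polyadenylated RNA was sequenced in 36 libraries from 7 human T cell neoplasm lines, 18 of cells labelled as GATA3 knockdown and 18 of controls. The titles name a short hairpin RNA against GATA3 for the knockdowns and a scrambled hairpin for the controls, whose genotype field reads WT, and all lines were grown in RPMI with serum. The labels class 3 lines as cutaneous T lymphocytes, called cutaneous T cell lymphoma (CTCL) lines here: H9 (3 knockdown and 2 control libraries), MyLa, which the labels call MylaCD4+ (3 and 3), and Mac1 (2 and 2). The 4 lines labelled as acute lymphoblastic leukaemia, called T-ALL here, are THP6 (2 knockdown and 3 control libraries), MOLT4 (2 and 2), CCRF-CEM (3 and 3) and SUP-T1 (3 and 3). The labels do not say whether replicates were separate cultures or separate hairpins, so p-values measure only the spread between these libraries.

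A T cell is activated when its antigen receptor and a costimulatory receptor signal together. CD28 and ICOS give the costimulatory signal, and CTLA4 competes with CD28 for the ligands CD80 and CD86. PDCD1 (the PD-1 gene), BTLA, LAG3 and HAVCR2 (the TIM-3 gene) lower the response of activated T cells, and antibodies against several of these receptors are cancer treatments. TIGIT, CD96 and CD226 share nectin-family ligands, where CD226 activates and TIGIT inhibits. GATA3 is a zinc finger transcription factor of T lineage commitment and T helper type 2 cells that binds DNA at words with a GATA core.

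CD28 (chromosome 2, 203706475 to 203738912, plus strand), CTLA4 (203867771 to 203873965) and ICOS (203936748 to 203961577) lie next to each other, with gaps of 128.9 kb and 62.8 kb between them. PDCD1 lies on the same chromosome (241849881 to 241858908, minus strand). BTLA (112463968 to 112499561, minus strand), CD96 (111292719 to 111665750, plus strand) and TIGIT (114276913 to 114310288, plus strand) are on chromosome 3. HAVCR2 is on chromosome 5 (157085832 to 157142869, minus strand), LAG3 on chromosome 12 (6772512 to 6778455, plus strand) and CD226 on chromosome 18 (69831158 to 69961803, minus strand). These positions are those of GENCODE 29 on GRCh38, and all 10 genes are annotated as protein coding.

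Promoters of 5 members are printed because the results turn on them: CD28, ICOS, CD226 and CD96 are the members whose knockdown response differed between lines, and TIGIT, found at a high level in MyLa only, is a further member with a GATA word. Each sequence runs 5′ to 3′ on the strand of its gene, from 250 bases before a RefSeq start to 50 bases after it (GRCh38.p14), and capitals mark a GATA word, that is the word AGATAA, the word AGATAG, the word TGATAA or the word TGATAG, on either strand.
CD28, chr2:203706389-203706688, plus strand: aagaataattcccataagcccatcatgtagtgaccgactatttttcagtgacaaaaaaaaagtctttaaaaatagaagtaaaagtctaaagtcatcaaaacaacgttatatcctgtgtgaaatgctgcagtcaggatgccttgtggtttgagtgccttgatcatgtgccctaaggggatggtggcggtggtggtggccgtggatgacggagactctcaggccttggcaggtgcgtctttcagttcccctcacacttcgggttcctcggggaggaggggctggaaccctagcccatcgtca
ICOS, chr2:203936513-203936812, plus strand: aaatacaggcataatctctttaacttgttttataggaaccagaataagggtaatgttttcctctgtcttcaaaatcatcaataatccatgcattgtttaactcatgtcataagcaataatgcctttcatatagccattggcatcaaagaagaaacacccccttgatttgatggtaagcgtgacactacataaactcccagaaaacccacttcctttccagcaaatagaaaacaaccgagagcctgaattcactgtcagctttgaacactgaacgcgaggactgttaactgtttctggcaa
CD226, chr18:69956750-69957049, minus strand: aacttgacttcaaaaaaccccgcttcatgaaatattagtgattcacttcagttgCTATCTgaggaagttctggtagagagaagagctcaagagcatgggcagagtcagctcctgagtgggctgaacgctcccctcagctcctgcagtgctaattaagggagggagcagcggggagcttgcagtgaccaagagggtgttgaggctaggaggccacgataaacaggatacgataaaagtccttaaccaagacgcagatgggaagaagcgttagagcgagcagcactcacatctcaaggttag
CD96, chr3:111541947-111542246, plus strand: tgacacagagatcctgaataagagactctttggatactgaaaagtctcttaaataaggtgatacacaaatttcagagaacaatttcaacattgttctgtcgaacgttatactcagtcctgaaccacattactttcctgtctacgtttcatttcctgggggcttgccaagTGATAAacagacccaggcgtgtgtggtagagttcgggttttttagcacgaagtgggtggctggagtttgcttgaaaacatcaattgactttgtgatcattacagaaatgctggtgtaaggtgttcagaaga
TIGIT, chr3:114293778-114294077, plus strand: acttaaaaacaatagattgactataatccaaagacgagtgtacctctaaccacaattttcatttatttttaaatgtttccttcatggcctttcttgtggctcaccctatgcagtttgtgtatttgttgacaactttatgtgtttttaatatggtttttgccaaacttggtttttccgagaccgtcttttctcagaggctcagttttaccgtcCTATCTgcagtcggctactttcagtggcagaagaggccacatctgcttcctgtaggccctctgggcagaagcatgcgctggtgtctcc
A GATA word was found in the windows of CD96 (TGATAA, from 81 bases before the start), TIGIT (CTATCT, the reverse complement of AGATAG, from 38 bases before it) and CD226 (CTATCT, from 196 bases before it). None was found in the windows of CD28, CTLA4, ICOS, PDCD1 and BTLA, or in the other CD226 window. Of all 35116 promoter windows of this length, 8769 (25.0%) hold such a word. A match describes the letters of the window and not binding.

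GATA3 itself was measured first, as the check of the labels. It was lower in libraries labelled knockdown in 6 lines, from 151 CPM in MyLa knockdown against 248 CPM in MyLa control libraries (log2 fold change -0.72) to 23.6 CPM in MOLT4 knockdown against 64.7 CPM in MOLT4 control libraries (log2 fold change -1.45), in CPM (counts-per-million of the scaled library total). In SUP-T1 it went against the labels, at 81.7 CPM in libraries labelled knockdown and 24.1 CPM in libraries labelled control, so every SUP-T1 direction below is that of the labels only. The 2 THP6 knockdown libraries stand apart from each other, with the lowest correlation between replicates (Pearson r = 0.959). The library CCRF-CEM control 2 lies apart from the other CCRF-CEM controls, with a chi-square per gene of 85.8 and 102.6 against 6.37 between those. Without it the log2 fold changes in CCRF-CEM were -1.36 for CD28, -0.94 for CD226 and -1.50 for CD96, and that of CD226 was no longer called (edgeR adjusted p = 0.0522). Of 12 T cell marker genes none was at 0 in an arm of H9 or of the T-ALL lines, 3 were at 0 in MyLa knockdown libraries, and 4 in Mac1 knockdown and 5 in Mac1 control libraries. CD3D, CD3E and CD3G had no count in any Mac1 library, and CD4 had 3 counts in all over the 6 MyLa libraries that the labels call CD4 positive. Of 6 natural killer cell markers, 4 in MOLT4 and 2 to 5 in the other lines had no count in an arm, and the summed level of the list was at most 5.69 CPM outside MOLT4, where NCAM1 made up nearly all of 31.5 to 41.7 CPM. Library totals ran from 18.6 M to 50.6 M counts.

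The receptors expressed, or their levels, differed between lines. Of the 10 members, 9 were tested, and BTLA fell under the filter on low counts. A mean of 1 CPM in at least one arm was reached by CD28, ICOS and CD96 in H9, by CTLA4, ICOS, TIGIT and CD96 in MyLa, and by CTLA4, ICOS, LAG3, HAVCR2, CD226 and CD96 in Mac1. In the T-ALL lines it was reached by CD28, PDCD1 and CD96 in SUP-T1, by CD28, CD226 and CD96 in CCRF-CEM and in THP6, and by ICOS, PDCD1 and CD96 in MOLT4. CD96 was the only member at this level in all 7 lines. CCRF-CEM and THP6 had the same members at this level but in unlike amounts. CCRF-CEM control libraries averaged 2.87 CPM of CD28 and 2.37 CPM of CD96, against 33.6 and 82.15 CPM in THP6 control libraries. CD226 was at 20.5 CPM in CCRF-CEM and 19.2 CPM in THP6 control libraries. Per kilobase of merged exons, which allows genes to be compared, CD96 led in H9 (24.1 CPM per kilobase in knockdown and 22.5 in control libraries), in MOLT4 (2.04 in knockdown and 1.19 in control) and in THP6 (13.4 in knockdown and 14.3 in control). ICOS led in MyLa (52.1 in knockdown and 50.3 in control), followed by TIGIT (34.6 in knockdown and 45.4 in control). LAG3 led in Mac1 (25.3 in knockdown and 16.1 in control), CD28 in SUP-T1 (19.8 in libraries labelled knockdown and 22.4 in those labelled control) and CD226 in CCRF-CEM (0.803 in knockdown and 1.503 in control). Fewer cells with a transcript and less of it per cell cannot be told apart in these bulk libraries.

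**Figure D1:**
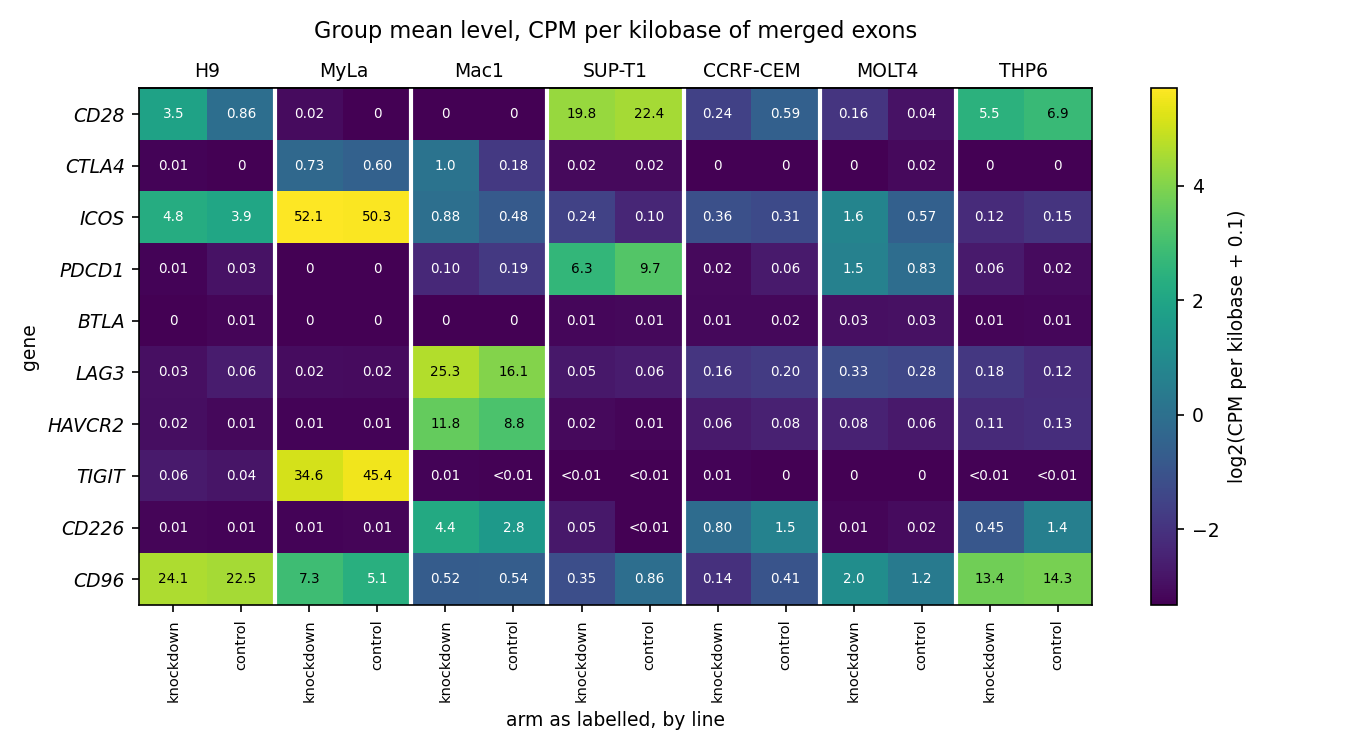
Group mean level of each member (rows) in each line and arm (columns, knockdown left of control), in CPM per kilobase of merged exons, with colour on the scale log2(CPM per kilobase + 0.1) and the value written in each cell. The high members differ between lines: ICOS and TIGIT are high in MyLa, LAG3 and HAVCR2 in Mac1, CD28 and PDCD1 in SUP-T1, and CD96 in H9 and THP6.

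CD28, the main costimulatory receptor, changed on knockdown in 3 lines and not in one direction. In H9 it was at 15.4, 18.6 and 17.96 CPM in knockdown libraries, against 4.45 and 3.94 CPM in control libraries. All 3 knockdown libraries were above both controls, a 4.13-fold increase (log2 fold change 2.05, SE 0.16, edgeR quasi-likelihood test with Benjamini-Hochberg adjustment over all tested genes, adjusted p = 1.15e-08). In MOLT4 it was at 0.684 and 0.904 CPM in knockdown libraries, against 0.144 and 0.199 CPM in control libraries (10 counts in both controls together). The arms did not overlap and CD28 rose 4.51-fold, from a level under 1 CPM in both arms (log2 fold change 2.17, SE 0.43, edgeR adjusted p = 0.000601). In CCRF-CEM the direction was the opposite: CD28 was at 1.17, 1.04 and 1.27 CPM in knockdown libraries, against 2.66, 2.59 and 3.37 CPM in control libraries. It fell 2.51-fold there, with no overlap (log2 fold change -1.33, SE 0.20, edgeR adjusted p = 4.46e-05).

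The lines with the most CD28 showed no call. SUP-T1 had 93.2, 101.8 and 95.2 CPM in libraries labelled knockdown, against 114.8, 112.3 and 101.3 CPM in libraries labelled control. The arms overlapped by one library, and the log2 fold change of -0.18 (95% interval -0.41 to 0.06) did not pass (edgeR adjusted p = 0.347). THP6 had 32.9 and 20.6 CPM in knockdown libraries, against 36.1, 31.7 and 33.0 CPM in control libraries. Only THP6 knockdown 2 was below the controls; the log2 fold change was -0.33 (edgeR adjusted p = 0.136), -0.03 without that library and -0.71 with it as the only knockdown library (edgeR adjusted p = 3.6e-05). MyLa had 7 CD28 counts over its 3 knockdown libraries and none in its 3 control libraries, which allows up to 0.0373 CPM, and this difference was not called (edgeR adjusted p = 0.0794). Mac1 had no CD28 count in either arm, which allows up to 0.0455 CPM in knockdown and 0.0513 CPM in control libraries. Such limits are 3 counts over the libraries of a group and cover counting error only. Ordered by control level, the lines ran SUP-T1, THP6, H9, CCRF-CEM, MOLT4, then MyLa and Mac1 at 0, and each neighbouring pair differed except MyLa and Mac1 (the largest adjusted p was 0.0120, for H9 over CCRF-CEM). Between neighbouring controls such as these, 55.1% of all tested genes (CCRF-CEM and THP6) to 68.5% (MyLa and SUP-T1) passed the same test.

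CTLA4, the inhibitory receptor that shares the ligands of CD28, was measurable in the 2 lines with no CD28 in their controls. In Mac1 it was at 1.75 and 2.49 CPM in knockdown libraries, against 0.303 and 0.487 CPM in control libraries. Both knockdown libraries were above both controls, a 5.29-fold rise (log2 fold change 2.40, SE 0.46, edgeR adjusted p = 0.00205). DESeq2 gave no adjusted p for CTLA4 in Mac1. Without Mac1 control 1 the change was 2.13 and no longer passed (edgeR adjusted p = 0.0608). In MyLa CTLA4 was at 1.57, 1.34 and 1.80 CPM in knockdown libraries, against 1.19, 1.36 and 1.298 CPM in control libraries. The MyLa arms overlapped (log2 fold change 0.29, 95% interval -0.41 to 1.00, edgeR adjusted p = 0.851). Elsewhere CTLA4 had at most 4 counts in an arm. Its control level was higher in MyLa than in Mac1 (edgeR adjusted p = 0.00247) and higher in Mac1 than in SUP-T1 (0.0390 CPM, adjusted p = 0.000409), and the lines below SUP-T1 could not be ordered.

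ICOS, the inducible costimulator, rose in MOLT4 and was higher in SUP-T1 libraries labelled knockdown. MOLT4 had 3.76 and 4.70 CPM in knockdown libraries, against 1.48 and 1.56 CPM in control libraries. The arms did not overlap (2.78-fold, log2 fold change 1.48, SE 0.27, edgeR adjusted p = 0.000171). SUP-T1 had 0.372, 0.969 and 0.578 CPM in libraries labelled knockdown, against 0.152, 0.272 and 0.345 CPM in libraries labelled control. Every library labelled knockdown was above every one labelled control, by as little as 0.372 against 0.345 CPM (log2 fold change 1.29, SE 0.43, edgeR adjusted p = 0.0351). That call was lost in turn without control 1, control 2, knockdown 2 or knockdown 3 (edgeR adjusted p from 0.0523 to 0.295).

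The line with the highest ICOS had no call. MyLa had 148, 137 and 128 CPM in knockdown libraries, against 138, 136 and 124 CPM in control libraries, and the arms overlapped (log2 fold change 0.05, 95% interval -0.25 to 0.35). H9 had 10.9, 13.6 and 13.3 CPM in knockdown libraries, against 9.86 and 11.0 CPM in control libraries, which overlapped too (log2 fold change 0.27, edgeR adjusted p = 0.714). Mac1 had 2.41 and 2.25 CPM in knockdown libraries, against 1.61 and 0.939 CPM in control libraries. Those arms did not overlap, but the log2 fold change of 0.87 did not pass (edgeR adjusted p = 0.0712; 0.00893 with DESeq2). CCRF-CEM and THP6 stayed under 1 CPM in both arm means, with overlapping arms. In order of control level, MyLa was above H9, which was above MOLT4, and each of these steps passed the test. MOLT4 and Mac1 did not differ beyond their spread (edgeR adjusted p = 0.526), nor did Mac1 and CCRF-CEM (0.166) or THP6 and SUP-T1 (0.224), while CCRF-CEM was above THP6 (0.0180).

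PDCD1, which encodes the inhibitory receptor PD-1, reached 1 CPM in SUP-T1 and MOLT4 only, and no line had a call. SUP-T1 had 13.2, 13.8 and 12.8 CPM in libraries labelled knockdown, against 21.1, 19.1 and 21.0 CPM in libraries labelled control. The arms did not overlap, with a log2 fold change of -0.62 (SE 0.23, edgeR adjusted p = 0.0668), and DESeq2 gave an adjusted p of 0.00119. MOLT4 had 2.87 and 3.27 CPM in knockdown libraries, against 1.87 and 1.62 CPM in control libraries. These arms did not overlap either, with a log2 fold change of 0.81 (SE 0.33, edgeR adjusted p = 0.0940; DESeq2 adjusted p = 0.0109). Mac1 had 13 PDCD1 counts in knockdown and 23 in control libraries, and MyLa had none in any of its 6 libraries. BTLA, an inhibitory receptor for TNFRSF14, had between 0 and 4 counts in every library. Its highest arm mean was in MOLT4, with 0.104 CPM in knockdown and 0.120 CPM in control libraries, and no count was found in MyLa or Mac1. No difference in BTLA was detectable at this depth.

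LAG3, which binds MHC class II, and HAVCR2, the TIM-3 gene, were both high in Mac1 and in no other line. LAG3 had 72.5 and 82.4 CPM in Mac1 knockdown libraries, against 47.3 and 51.4 CPM in Mac1 control libraries. HAVCR2 had 44.5 and 45.1 CPM in Mac1 knockdown libraries, against 32.5 and 34.5 CPM in Mac1 control libraries. For both genes the knockdown libraries were above both controls, but neither passed: the log2 fold change was 0.65 for LAG3 (SE 0.26, edgeR adjusted p = 0.147) and 0.42 for HAVCR2 (SE 0.21, edgeR adjusted p = 0.260). With Mac1 fitted alone both passed (edgeR adjusted p = 0.00392 for LAG3 and 0.0135 for HAVCR2). In the other lines LAG3 averaged at most 0.997 CPM and HAVCR2 at most 0.479 CPM in an arm. The Mac1 control level was above that of the next line by 5.86 on the log2 scale for LAG3 (MOLT4, edgeR adjusted p = 1.37e-14) and by 6.10 for HAVCR2 (THP6, adjusted p = 9.49e-19). HAVCR2 shares 50 exon bases on the same strand with MED7, and reads there could be counted for either gene.

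TIGIT, the inhibitory receptor of the nectin ligands, had its one high level in MyLa. It was at 229, 212 and 191 CPM in MyLa knockdown libraries, against 296, 267 and 267 CPM in MyLa control libraries. All knockdown libraries were below all controls, with a log2 fold change of -0.39 (95% interval -0.64 to -0.15), but the difference was not called (edgeR adjusted p = 0.0964). DESeq2 (adjusted p = 0.00881), limma-voom (0.0259) and a fit of MyLa alone (0.00438) did call it. With the replicate number as a block, where the numbers pair the MyLa libraries, the edgeR adjusted p was 0.206. Next was H9, where TIGIT had 0.290, 0.439 and 0.333 CPM in knockdown libraries, against 0.148 and 0.365 CPM in control libraries. MyLa controls were above H9 controls by 10.05 on the log2 scale (edgeR adjusted p = 1.71e-21). The other 5 lines had at most 3 TIGIT counts in an arm.

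CD226, the activating receptor that competes with TIGIT, was lower in knockdown libraries of CCRF-CEM and THP6 and higher in SUP-T1 libraries labelled knockdown, which held more GATA3. In these 3 lines, taken because CD226 was called, the arm with more GATA3 on average had more CD226. Mac1, where it was not called, went the other way. GATA3 averaged 40.8 CPM in Mac1 knockdown and 90.3 CPM in Mac1 control libraries, and CD226 averaged 59.4 and 38.8 CPM. In H9 CD226 averaged 0.121 CPM in knockdown and 0.0733 CPM in control libraries. It averaged 0.084 and 0.111 CPM in MyLa, and 0.138 and 0.275 CPM in MOLT4, with no call in these lines. A relation of CD226 to GATA3 level was not tested. Within THP6, knockdown 2 had more GATA3 than knockdown 1 (73.5 against 55.7 CPM) and less CD226. In CCRF-CEM CD226 was at 12.1, 9.72 and 11.0 CPM in knockdown libraries, against 21.4, 18.5 and 21.6 CPM in control libraries. The arms were well apart, with a 1.88-fold fall (log2 fold change -0.91, SE 0.26, edgeR adjusted p = 0.0263), yet the call was lost on leaving out any one of the 6 libraries (edgeR adjusted p from 0.0520 to 0.132) and with DESeq2 (0.0682). In THP6 it was at 10.4 and 1.78 CPM in knockdown libraries, against 20.1, 19.2 and 18.3 CPM in control libraries. Both knockdown libraries were below all controls and far from each other (log2 fold change -1.65, SE 0.31, edgeR adjusted p = 0.00196). With THP6 fitted alone the change was -1.67 and the call was lost (edgeR adjusted p = 0.753). Without THP6 knockdown 2 the change was -0.88 (edgeR adjusted p = 0.00301), and without THP6 knockdown 1 it was -3.43 (edgeR adjusted p = 6.85e-14).

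Mac1 had the highest CD226, at 60.5 and 58.3 CPM in knockdown libraries, against 38.2 and 39.4 CPM in control libraries. The Mac1 arms did not overlap, but the log2 fold change of 0.61 did not pass (SE 0.30, edgeR adjusted p = 0.250; 0.0443 with limma-voom). SUP-T1 had 56 CD226 counts over the 3 libraries labelled knockdown, against 3 over the 3 labelled control. The ratio was 21.7 (95% exact interval 7.05 to 108, for counting error only), and the difference was called at a level under 1 CPM in both arms (edgeR adjusted p = 0.00116). In control level Mac1 was above CCRF-CEM (edgeR adjusted p = 0.00504), and CCRF-CEM was close to THP6, with 20.5 against 19.2 CPM (log2 difference 0.10, edgeR adjusted p = 0.814). THP6 was above MOLT4 (0.275 CPM) by 6.10 on the log2 scale (edgeR adjusted p = 6.03e-12), and among MOLT4, MyLa, H9 and SUP-T1 no neighbouring pair passed (edgeR adjusted p from 0.258 to 0.746). CD226 shares 112 exon bases with DOK6 on the opposite strand, and whether counting used strand is not stated in the sources used here, so reads of these 2 genes there cannot be told apart.

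CD96, a receptor for PVR, was the most widely expressed member and differed between arms in 4 lines. It was higher in knockdown libraries of MyLa and MOLT4, lower in those of CCRF-CEM, and lower in SUP-T1 libraries labelled knockdown, which held more GATA3. These 4 lines were taken because CD96 was called. By mean GATA3 level, the arm with less GATA3 had more CD96 in 3 of the 4 and less in CCRF-CEM. In the lines without a call the log2 fold change was 0.10 in H9, -0.03 in Mac1 and -0.09 in THP6. A relation of CD96 to GATA3 level was not tested. In MyLa CD96 was at 43.8, 43.8 and 39.2 CPM in knockdown libraries, against 29.4, 30.6 and 27.4 CPM in control libraries. It rose 1.45-fold with no overlap (log2 fold change 0.54, SE 0.10, edgeR adjusted p = 0.00244). In MOLT4 it was at 11.3 and 12.2 CPM in knockdown libraries, against 6.99 and 6.75 CPM in control libraries, a rise of 1.71-fold with no overlap (log2 fold change 0.78, SE 0.14, edgeR adjusted p = 0.000166). In CCRF-CEM it was at 0.924, 1.04 and 0.463 CPM in knockdown libraries, against 2.24, 2.37 and 2.502 CPM in control libraries. It fell 2.90-fold there, and every knockdown library was below every control (log2 fold change -1.53, SE 0.20, edgeR adjusted p = 2.94e-06).

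In SUP-T1 CD96 was at 2.45, 1.97 and 1.69 CPM in libraries labelled knockdown, against 5.72, 5.19 and 3.99 CPM in libraries labelled control. The libraries labelled knockdown, which held more GATA3, were the lower ones, by 2.42-fold with no overlap (log2 fold change -1.28, SE 0.15, edgeR adjusted p = 1.45e-07). The 2 lines with the most CD96 had no call. H9 had 139, 139 and 137 CPM in knockdown libraries, against 125 and 134 CPM in control libraries, with every knockdown library just above both controls (log2 fold change 0.10, 95% interval -0.13 to 0.33, edgeR adjusted p = 0.910). THP6 had 79.5 and 74.7 CPM in knockdown libraries, against 88.6, 78.1 and 79.7 CPM in control libraries and the arms overlapped (log2 fold change -0.09, 95% interval -0.32 to 0.14). Mac1 was low and flat, with 3.16 and 2.85 CPM in knockdown libraries, against 2.83 and 3.38 CPM in control libraries (log2 fold change -0.03). By control level the lines ran H9, THP6, MyLa, MOLT4, SUP-T1, Mac1 and CCRF-CEM, and each neighbouring pair differed except Mac1 and CCRF-CEM (edgeR adjusted p = 0.0515).

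**Figure D2:**
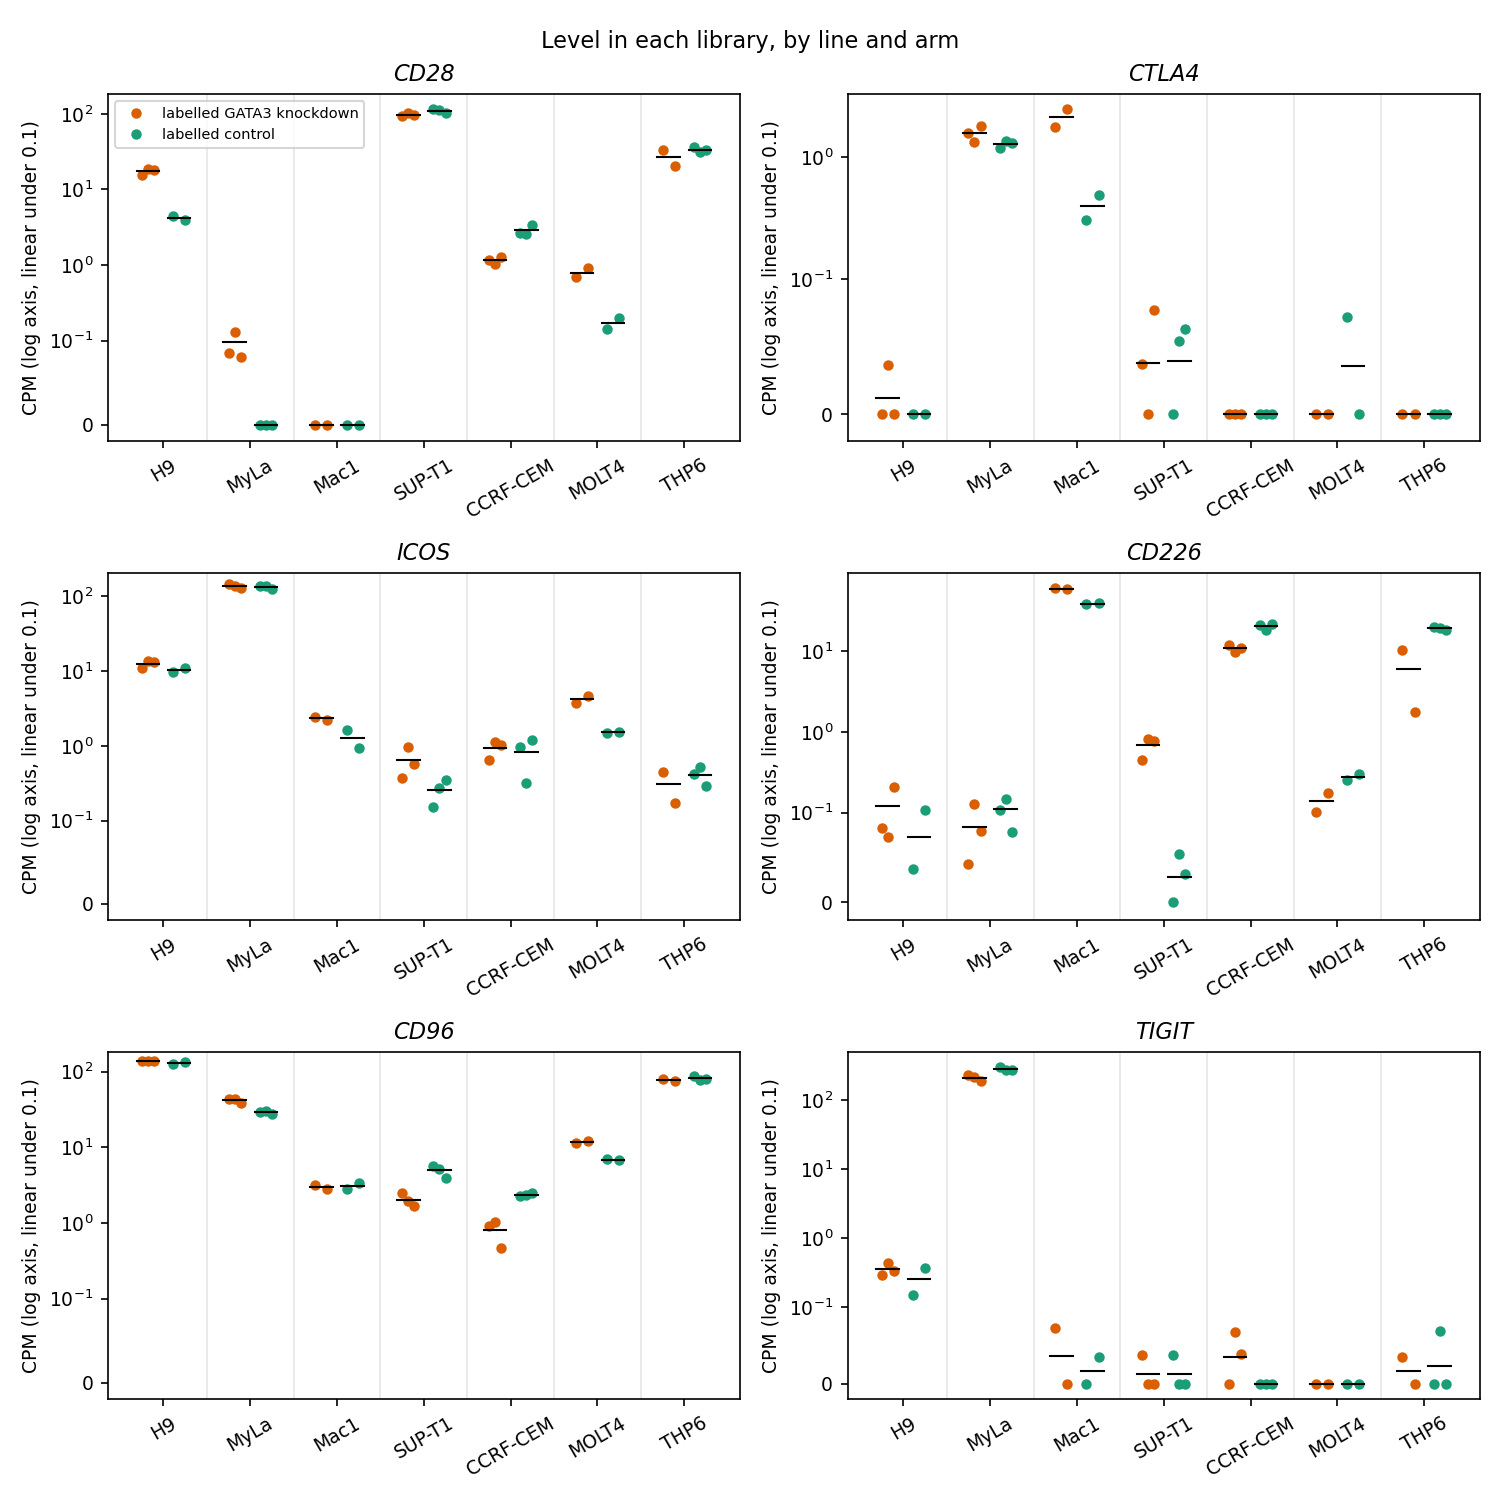
Level of 6 members in every library, in CPM on a log axis that is linear under 0.1, by line, with libraries labelled GATA3 knockdown (orange) left of libraries labelled control (green) and a bar at each group's mean. CD28 is higher in knockdown libraries of H9 and MOLT4 and lower in those of CCRF-CEM, CD96 is higher in MyLa and MOLT4 and lower in SUP-T1 and CCRF-CEM, and the 2 THP6 knockdown libraries lie apart for CD226.

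Counted by line, the members called on knockdown were few, and each count is read against the share of all 21138 tested genes that passed. In H9 1 of 9 tested members was called (CD28, higher), where 1.82% of all genes were called. In MyLa it was 1 of 9 (CD96, higher) against 1.88%, and in Mac1 1 of 9 (CTLA4, higher) against 7.89%. In CCRF-CEM 3 of 9 were called, CD28, CD226 and CD96, all lower, against 8.44% of all genes. In MOLT4 3 of 9 were called, CD28, ICOS and CD96, all higher, against 19.2%. In THP6 it was 1 of 9 (CD226, lower) against 7.4%, that is 1564 genes. The number of genes called was 74 without THP6 knockdown 2 and 7900 without THP6 knockdown 1. In SUP-T1 3 of 9 were called, ICOS and CD226 higher and CD96 lower in libraries labelled knockdown, against 16.7%. With 9 tested members a single call is already 1 in 9, so the counts of 1 say little about the members as a group. The median log2 fold change of the 9 tested members, those with few or no counts included, ran from -0.51 in CCRF-CEM to 0.61 in Mac1. It was 0 for all tested genes in each line. The calls of CD28 in MOLT4 and of ICOS and CD226 in SUP-T1 were of members under 1 CPM in both arms. Leaving out 1 library lowered the number of genes called to as few as 108 of 384 in H9 (without control 1), 196 of 397 in MyLa (without control 1), 562 of 1668 in Mac1 (without control 1), 1083 of 1783 in CCRF-CEM (without knockdown 2) and 2260 of 4054 in MOLT4 (without knockdown 1).

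**Figure D3:**
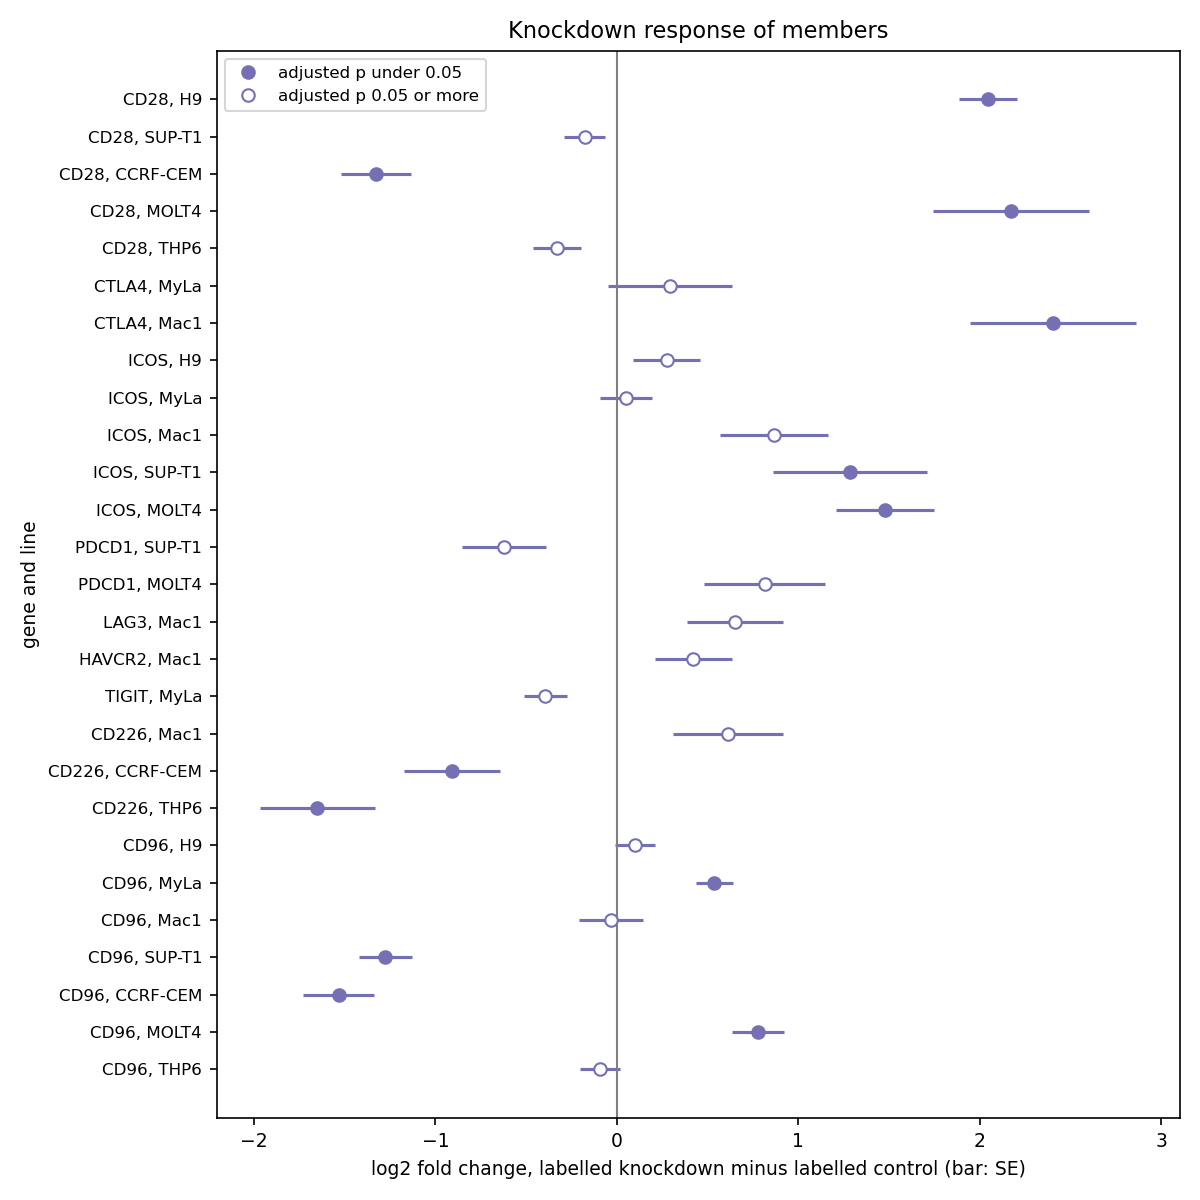
Log2 fold change of each member in each line where an arm mean reached 1 CPM or the change was called, labelled knockdown minus labelled control, with bars of 1 SE and filled points where the edgeR adjusted p was under 0.05. The call of CD226 in SUP-T1, with 3 control counts, is left out and given as a ratio in the text. CD28 and CD96 have filled points on both sides of 0, those of CD226 are on the lower side, and those of CTLA4 and ICOS are on the higher side.

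Markers of other cell types and of T cell state moved with some of these results, and their part in them was not tested. Of all genes 1.82% were called in H9, 1.88% in MyLa, 7.89% in Mac1 and 8.44% in CCRF-CEM. The share was 19.2% in MOLT4, 7.4% in THP6 and 16.7% in SUP-T1. In MOLT4 8 of 12 T cell markers rose and none fell, among them CD7 (log2 fold change 4.35) and CD3D (0.84), and their summed level was 2036 to 2133 CPM in knockdown libraries, against 1231 to 1253 CPM in control libraries. In CCRF-CEM 1 rose and 3 fell, with overlapping sums of 986 to 1048 CPM in knockdown and 984 to 1033 CPM in control libraries. In H9 1 of 12 rose (TRAC), and the sums overlapped, at 1538 to 1649 CPM in knockdown and 1591 to 1618 CPM in control libraries. In MyLa 2 rose, and the sums were 421 to 448 CPM in knockdown and 401 to 417 CPM in control libraries. In Mac1 3 rose and none fell (665 to 678 CPM in knockdown and 511 to 532 CPM in control libraries), and the 6 myeloid markers summed to 62.6 to 66.2 CPM in knockdown and 39.6 to 44.6 CPM in control libraries, mostly CSF1R, with no myeloid marker called. In SUP-T1 2 rose and 5 fell, and the sums were 2147 to 2347 CPM in libraries labelled knockdown and 2546 to 2689 CPM in those labelled control. In THP6 2 rose, with overlapping sums of 1129 to 1218 CPM in knockdown and 1140 to 1206 CPM in control libraries. Sums for other cell types moved too. The 4 fibroblast and epithelial markers summed to 58.0 to 58.2 CPM in MOLT4 knockdown libraries, against 14.6 to 15.05 CPM in MOLT4 control libraries. PDGFRB and KRT5 were called higher there. The 5 B cell markers summed to 242 to 249 CPM in H9 knockdown and 189.5 to 213 CPM in H9 control libraries, with none called. In CCRF-CEM they summed to 17.35 to 19.0 CPM in knockdown and 27.2 to 28.8 CPM in control libraries.

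Because a call in one line and none in another shows no difference by itself, the equality of the responses was tested over the 6 lines other than SUP-T1. It was rejected for 4 of 9 tested members, where 25% of all tested genes passed. CD28 had the lowest p (edgeR F test of equal responses, adjusted p = 2.83e-09), followed by CD96 (4.76e-07), CD226 (0.00663) and ICOS (0.00902). CTLA4 (adjusted p = 0.0562), PDCD1 (0.113), TIGIT (0.333), HAVCR2 (0.536) and LAG3 (0.564) did not pass. Without THP6 as well, a subset chosen after seeing the data, 20.3% of all genes passed, and so did CD28 (adjusted p = 6.6e-09), CD96 (3.02e-07), ICOS (0.00861) and CTLA4 (0.0413), while CD226 did not (0.0607).

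A mean response over the lines was not called for any member, in a test that few genes of any kind passed. With counts summed per line and arm and the line as a term, edgeR called 0 of 9 tested members over all 7 lines, where 0.00435% of all genes were called, and 0 over the 6 lines without SUP-T1, where 0.0222% were. At an unadjusted p under 0.05 the count over the 6 lines was 0 as well. ICOS came nearest, with a mean log2 fold change of 0.44 (edgeR quasi-likelihood test, unadjusted p = 0.0515, adjusted p = 0.870 by that model).

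Between the disease classes, no difference in the members' control levels passed the test. With control counts summed per line, edgeR called 0 of 7 tested members for CTCL over T-ALL, where 0.28% of all genes were called, and 3 had an unadjusted p under 0.05. These were ICOS (log2 difference 6.01, SE 1.55, unadjusted p = 0.00584, adjusted p = 0.180), LAG3 (unadjusted p = 0.0421) and HAVCR2 (0.0471). For ICOS the control means were 10.4, 133 and 1.28 CPM in the CTCL lines H9, MyLa and Mac1, against 1.52, 0.825, 0.410 and 0.256 CPM in the T-ALL lines MOLT4, CCRF-CEM, THP6 and SUP-T1, so the classes overlapped. LAG3 and HAVCR2 had higher fitted means in CTCL but lower medians (LAG3: 0.184 CPM in CTCL and 0.484 CPM in T-ALL lines), as 1 CTCL line, Mac1, held their high levels. Without Mac1 the log2 difference was -2.03 for LAG3 and -2.67 for HAVCR2. The ICOS difference of 6.01 also leaned on 1 line and was 2.92 without MyLa. An exact permutation test over the 7 lines, two-sided, gave p = 0.114 for ICOS and 0.8 for LAG3 and HAVCR2, where the smallest p that 35 splits allow is 0.0571. BTLA reached that limit, with every CTCL line below every T-ALL line, at 0 to 0.0368 CPM in CTCL and 0.0384 to 0.120 CPM in T-ALL controls and at most 4 counts in a library. Leaving out any one line gave 0 calls among the members.

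Ligands of these receptors are known from antigen-presenting and stromal cells, and some were expressed by the lines themselves. The genes in this paragraph were chosen by the receptor they bind, outside the rule for named genes and with their values seen. CD86, a ligand of CD28 and CTLA4, was high in the 2 lines with CTLA4 and no control CD28: it averaged 118 CPM in MyLa knockdown and 116 CPM in MyLa control libraries, and 235 CPM in Mac1 knockdown and 174 CPM in Mac1 control libraries. CD86 was called in Mac1 (log2 fold change 0.43, SE 0.13, edgeR adjusted p = 0.0367), and it averaged at most 0.242 CPM in the other lines. CD80, the other ligand of both, averaged 35.7 CPM in MyLa knockdown and 39.8 CPM in MyLa control libraries, and 21.6 CPM in Mac1 knockdown and 26.5 CPM in Mac1 control libraries. PVR, which TIGIT, CD226 and CD96 bind, averaged 38.5 CPM in MyLa knockdown and 39.2 CPM in MyLa control libraries, and had at most 1 count in a SUP-T1 library. CD274, the PD-L1 gene, was highest in Mac1, with 32.9 CPM in knockdown and 29.6 CPM in control libraries, where PDCD1 averaged 0.221 CPM in knockdown and 0.392 CPM in control libraries. Across the 18 listed ligands, 16 were tested. On knockdown none was called in MyLa, 1 lower in H9, 2 higher and 2 lower in Mac1 and 2 lower in CCRF-CEM. In MOLT4 2 were higher and 3 lower, in THP6 2 higher and 1 lower, and in SUP-T1 libraries labelled knockdown 2 lower. Of all genes 1.82% were called in H9, 1.88% in MyLa, 7.89% in Mac1 and 8.44% in CCRF-CEM. The share was 19.2% in MOLT4, 7.4% in THP6 and 16.7% in SUP-T1.

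Other genes of the pathway were followed through lists of 20 further checkpoint and costimulatory receptors, 24 signalling partners and 22 transcription factors of exhausted and regulatory T cells. In Mac1 6 of 19 tested receptors rose and none fell, with a median log2 fold change of 0.80 beside 0 for all genes. Of all genes 7.89% were called in Mac1, 1171 higher and 497 lower. The lowest adjusted p were those of LAIR1, an inhibitory collagen receptor (log2 fold change 1.44, SE 0.12, edgeR adjusted p = 4.19e-09), and TNFRSF9, the costimulator 4-1BB (1.75, SE 0.14, adjusted p = 3e-08). In CCRF-CEM none of the 19 rose and 4 fell, led by TNFRSF4, the OX40 gene (log2 fold change -1.53, edgeR adjusted p = 1.31e-08), and PVRIG, a nectin receptor (-0.48, edgeR adjusted p = 1.87e-05). Of all genes 8.44% were called in CCRF-CEM, 635 higher and 1148 lower. In MOLT4 3 rose and 3 fell, PVRIG among those that fell (log2 fold change -0.78, edgeR adjusted p = 1.07e-07). In H9 the single call was a fall of TNFRSF9 (log2 fold change -0.98, edgeR adjusted p = 3.12e-05), none was called in MyLa, 2 rose and 1 fell in THP6, and 2 were higher and 3 lower in SUP-T1 libraries labelled knockdown.

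Among the 24 signalling partners, all tested, 1 rose and 6 fell in CCRF-CEM, where calls over all genes also leaned lower (635 higher and 1148 lower). The riser was DGKA, a diacylglycerol kinase that limits antigen receptor signals (log2 fold change 0.51, edgeR adjusted p = 1.06e-05). DGKA was also the single call in H9 (0.49, edgeR adjusted p = 0.000267) and in MyLa (0.35, edgeR adjusted p = 0.00361), higher in both. It was lower in SUP-T1 libraries labelled knockdown (-0.48, edgeR adjusted p = 4.75e-06) and was not called in Mac1, MOLT4 or THP6. Of the partners, 2 rose and 1 fell in Mac1, 4 rose and 3 fell in MOLT4, and 1 rose and 2 fell in THP6. In SUP-T1 libraries labelled knockdown 3 were higher and 2 lower, led by the lipid phosphatase gene INPP5D (log2 fold change 1.69, SE 0.09, edgeR adjusted p = 1.12e-13). Of the 22 transcription factors, 7 rose and 5 fell in MOLT4, with ID2, an inhibitor of E proteins, higher (log2 fold change 2.06, edgeR adjusted p = 5.83e-09) and TOX, a factor of T cell exhaustion, lower (-0.79, adjusted p = 4.64e-09). In MyLa 2 rose and 3 fell: PRDM1 (log2 fold change 0.87) and EOMES (1.33) were higher, and TOX (-0.65) and BACH2 (-1.05) were among the lower ones (edgeR adjusted p from 9.57e-08 to 0.000174). In Mac1 2 rose, one of them IRF4 (log2 fold change 0.71, edgeR adjusted p = 2.85e-05). In H9 3 rose, among them ID2 (1.19, adjusted p = 3.18e-05) and LEF1 (0.57, adjusted p = 0.000198), 3 rose and 2 fell in CCRF-CEM, and 2 rose and 2 fell in THP6, where NR4A3 was higher (2.33, edgeR adjusted p = 0.00262). In SUP-T1 libraries labelled knockdown 3 were higher and 4 lower. Medians of these 2 lists lay between -0.19 and 0.09 in every line. Calls over all genes made up 1.82% in H9, 1.88% in MyLa, 7.89% in Mac1 and 8.44% in CCRF-CEM. The share was 19.2% in MOLT4, 7.4% in THP6 and 16.7% in SUP-T1.

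Genes whose pattern over the 14 group means was most like that of a member were found by Pearson's r of log2(CPM + 1), as a description over groups that share lines. For TIGIT they were KCNJ16 (r = 1.00), TNFRSF18 and PTGS2, all highest in MyLa control libraries, and TNFRSF18, the GITR gene, is itself a costimulatory receptor. For LAG3 they were CD163L1, HAVCR2 and ARHGAP24 (r from 0.9947 to 0.9949), so a member was among the 3 nearest genes of another, and for HAVCR2 they were CDKN2A, TUBBP5 and LINC01270. PDCD1 was nearest to IRX1 (r = 0.9945), CR2 and AC005524.1, all highest in SUP-T1. The nearest genes of CD28 were KCNMB3 (r = 0.9605), APIP and BAIAP2-DT, those of ICOS were TLR6 (r = 0.983), PYHIN1 and UPK1A, those of CD226 were HMHB1 (r = 0.959), NDC1 and LIMS4, and those of CD96 were ADPRM (r = 0.968), GCNT1 and ARHGAP45. A high r of this kind follows from a level that is high in 1 line and low in the others, which holds for TIGIT, LAG3, HAVCR2 and PDCD1.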

How the data were processed

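The authors' deposited table holds expected counts per gene, estimated by RSEM 1.3.3 after trimming with cutadapt 2.3 and alignment with STAR 2.7.8a to GRCh38, per the submitters' processing notes. The values were whole as deposited. Whether counting used strand is not stated in the sources used here. Of 60628 identifiers, 5 reporter rows with 0 counts were left out, and 96.5% of the 60623 others were found in GENCODE 29. All columns were mapped to a library by title, with 0 left over. Totals ran from 18.6 M to 50.6 M counts, which sets the counting error.

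Genes were filtered with filterByExpr and scaled by TMM, and one edgeR 4.0.16 quasi-likelihood model over 14 groups (R 4.3.3, 22 residual degrees of freedom) was fitted to 21138 genes. Adjusted p-values (Benjamini-Hochberg over all tested genes) under 0.05 were called. CPM used the scaled totals. Equality of the responses was an F test in the same model. The mean response and the CTCL comparison used counts summed per line. Fitting was tested on simulated data. Exact intervals of counts are at the 95% level and limits for a count of 0 rest on 3 counts; both cover counting error only.

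Members and lists were chosen with earlier results of these data known. The naming rule for the lists of ligands, receptors, signalling partners and transcription factors took up to 4 called genes per line. These were the ones with the lowest adjusted p, and not all of them were described. TNFRSF14 in MOLT4 (log2 fold change 2.07, edgeR adjusted p = 1.89e-10) was one left out. DGKA in MyLa was named outside the rule. Alternatives were DESeq2 1.42.0, limma-voom (limma 3.58.1), other size factors, no filter, separate fits, a fold limit, a replicate block and leaving out libraries or lines. Same-numbered libraries had correlated deviations over 0.1 in all 3 pairs of MyLa and both pairs of H9. This held for 7 of 17 pairs in all (from -0.25 to 0.40). In Mac1 and MOLT4, with 2 libraries in each arm, the 2 pairs give the same value by construction. With 3 pairs required, the numbers were taken to pair MyLa only. The main tests did not use this pairing, which entered only through the replicate block. Figures used matplotlib 3.10.9.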

Additional observations from a re-analysis of the deposited data

Results flagged for a closer look

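The knockdown response of 4 members differed between the 6 lines other than SUP-T1, by an edgeR F test of equal responses. For CD28 (adjusted p = 2.83e-09) the response was a rise in H9 and MOLT4 and a fall in CCRF-CEM. For CD96 (adjusted p = 4.76e-07) it was a rise in MyLa and MOLT4 and a fall in CCRF-CEM. For CD226 (adjusted p = 0.00663) there was a fall in CCRF-CEM and THP6 and a log2 fold change of 0.61 in Mac1, and the difference did not pass without THP6 (0.0607). For ICOS (adjusted p = 0.00902) the rise in MOLT4 stood beside a log2 fold change of 0.05 in MyLa. Among the T-ALL lines no line stood apart by the gap test on control levels. The CTCL lines were not tested in this way.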

How the results depend on the processing

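Member counts moved in every line but H9, and most for their size in Mac1, MyLa and THP6. In Mac1 the single call became 4 with no filter, with a separate fit of each line and with limma-voom. With DESeq2 the Mac1 count stayed at 1, but the call was ICOS, and CTLA4 had no adjusted p. In MyLa the single call became 2 with no filter, a separate fit or DESeq2, 3 with limma-voom and 0 with a log2 fold change of at least 1. In THP6 it became 0 with a separate fit. In CCRF-CEM 3 calls became 2 with DESeq2 or with that fold limit. In MOLT4 3 calls became 4 with no filter, a separate fit or DESeq2, and 2 with that fold limit. In SUP-T1 3 calls became 4 with no filter, a separate fit or DESeq2. Leaving out one library gave 0 to 1 calls in Mac1, 1 to 4 in THP6 (4 without knockdown 1), 3 in MOLT4, 2 to 3 in SUP-T1, 2 in CCRF-CEM, and 1 in H9 and MyLa. Where this left 1 library in an arm, it was assumed to vary like the other groups. The replicate block left the member count as it was in every line, including 1 in MyLa, and changed no call. The mean response and the class comparison gave 0 calls under every alternative run. Changes near 0 reversed: ICOS in MyLa was -0.0034 without knockdown 1 (up to 0.094 without another library), and CD96 in Mac1 was 0.0015 with no filter, 0.13 without control 2 and 0.06 without knockdown 2 (down to -0.13 without control 1). The cause of these changes was not tested.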
